A study of Rattus norvegicus with 93 samples.

Results

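A set of 32 genes that mark neurons, astrocytes and central myelin was followed through the healing of rat skull defects. The genes were taken from a given list and found by symbol in the platform annotation; all 32 were on the array, of 15975 genes in all. They comprised 23 neuronal, 4 astrocyte and 5 myelin genes. RNA came from 93 defects in male rats, each on 1 one-colour Agilent rat whole-genome array labelled with Cy3, from animals aged 12 weeks. A circular piece of the calvaria, the roof of the skull, was cut out at 8 mm (a critical-size defect, labelled CSD) or at 4 mm (non-CSD), no other treatment was given, and the healing plug was taken with a trephine of the same width. The 8 mm groups held 5, 11, 12, 5, 6, 6 and 6 arrays at days 1, 3, 5, 7, 10, 14 and 21, and the 4 mm groups held 3, 8, 11, 5, 4, 5 and 6. The labels give no strain or genotype, and they do not say whether a rat number repeated in another group is the same animal. No array came from unoperated bone.

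The dura mater, the outer membrane around the brain, was left in place under every defect, so the brain lay below the harvested region. Neurons release transmitter from vesicles at synapses, signal through glutamate and GABA receptors, and keep long axons stiff with neurofilaments. Astrocytes clear glutamate and move water at vessel walls, and oligodendrocytes wrap central axons in myelin. Bone and its covering also receive peripheral axons, whose cell bodies lie outside the defect and whose myelin is made by Schwann cells. Gfap, Mbp, Mag and Cnp are made by Schwann cells too, whereas Mog and Mobp belong mainly to central myelin.

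Many neuronal genes are held silent in other cells by the repressor REST, which binds the RE1 element, and several carry a CRE, the site of CREB. The 250 bases before the start are shown for 3 neuronal members whose values went different ways, as described below. Scg2 and Chgb encode granins, the acidic proteins of dense-core secretory granules, and Syn1 encodes the vesicle phosphoprotein synapsin I. The sequences are RefSeq's for the GRCr8 build, printed 5′ to 3′ on the gene's strand, with matches in capitals. They lie at chr9:88256867-88257116 on the minus strand for Scg2, chrX:3725495-3725744 on the plus strand for Syn1 and chr3:140496462-140496711 on the plus strand for Chgb.
Scg2: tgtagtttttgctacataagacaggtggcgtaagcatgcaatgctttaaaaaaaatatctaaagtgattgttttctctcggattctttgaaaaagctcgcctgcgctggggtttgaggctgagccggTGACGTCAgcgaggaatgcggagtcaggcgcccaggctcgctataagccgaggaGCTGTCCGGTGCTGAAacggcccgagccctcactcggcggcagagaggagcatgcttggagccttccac
Syn1: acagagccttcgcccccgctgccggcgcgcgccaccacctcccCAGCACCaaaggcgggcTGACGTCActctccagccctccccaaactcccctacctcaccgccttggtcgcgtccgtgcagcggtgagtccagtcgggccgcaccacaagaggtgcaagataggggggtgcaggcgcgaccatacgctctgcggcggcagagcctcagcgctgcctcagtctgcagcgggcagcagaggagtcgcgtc
Chgb: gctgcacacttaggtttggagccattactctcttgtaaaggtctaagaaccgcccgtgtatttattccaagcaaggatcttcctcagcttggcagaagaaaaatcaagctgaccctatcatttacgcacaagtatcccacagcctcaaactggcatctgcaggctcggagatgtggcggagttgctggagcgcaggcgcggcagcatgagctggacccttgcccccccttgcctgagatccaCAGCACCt
The motifs searched on both strands were TTCAGCACC and its inner stretch CAGCACC (left part of RE1), GGACAGC (right part of RE1) and TGACGTCA (CRE). Scg2 carried the left part from 62 to 54 bases and the right part from 69 to 63 bases before the start, next to each other on the opposite strand, and a CRE from 123 to 116 bases. Syn1 carried CAGCACC from 207 to 201 bases and a CRE from 190 to 183 bases, and Chgb carried CAGCACC from 8 to 2 bases before the start. Among 33465 windows of this length, 0.305% held TTCAGCACC, 5.44% CAGCACC, 5.30% GGACAGC and 1.59% the CRE. Windows were given for 21 of the 32 members. Of these, TTCAGCACC and GGACAGC were found in Scg2 alone, CAGCACC in Syn1, Scg2, Chgb and Gfap, and the CRE in Syn1 and Scg2.

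The deposited values are ratios, for most probes relative to that probe's own median over the arrays, with a lowest value of 0.01. They were used as log2 values, so 0 is the usual level of a probe, 2 is 4-fold above it and -6.64 is the floor. Levels of different genes cannot be set against each other on this scale, and values at the floor have no order. Of the member values 15.6% were at the floor, against 11.5% over all genes. Array levels, the median log2 value of the 12117 probes never at the floor, ranged from -2.69 to 0.69, and 7 arrays lay below -0.7. At day 1 these were rat 11 of 8 mm (-1.50) and rat 13 of 4 mm defects (-1.19). At day 3 they were rats 18 and 20 of 8 mm defects. At day 10 they were rats 10 and 11 of 8 mm and rat 10 of 4 mm defects. In the harvested tissue at day 21 against day 1, 14 of 15 skeletal muscle genes fell (12.8% of all genes fell), while 5 of 11 bone formation genes and 7 of 10 meningeal genes rose (13.4% of all genes rose).

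The members did not vary as a smooth course but stood together on a few arrays. On 10 arrays between 13 and 25 of the 32 members lay above a log2 value of 2, while none of the other 83 had more than 9. Among 8 mm defects these were rats 12 (25 members) and 10 (21) at day 7, rat 11 (21) at day 14 and rat 17 (17) at day 5. Among 4 mm defects they were rats 11 (25), 15 (25) and 10 (23) at day 21, rats 17 (20) and 15 (15) at day 14 and rat 17 (13) at day 5. There was none at day 1, 3 or 10 in either size, and none among the 6 arrays of 8 mm defects at day 21. These arrays were picked by the members' own values, so what follows about them is a description and carries no test.

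**Figure D1:**
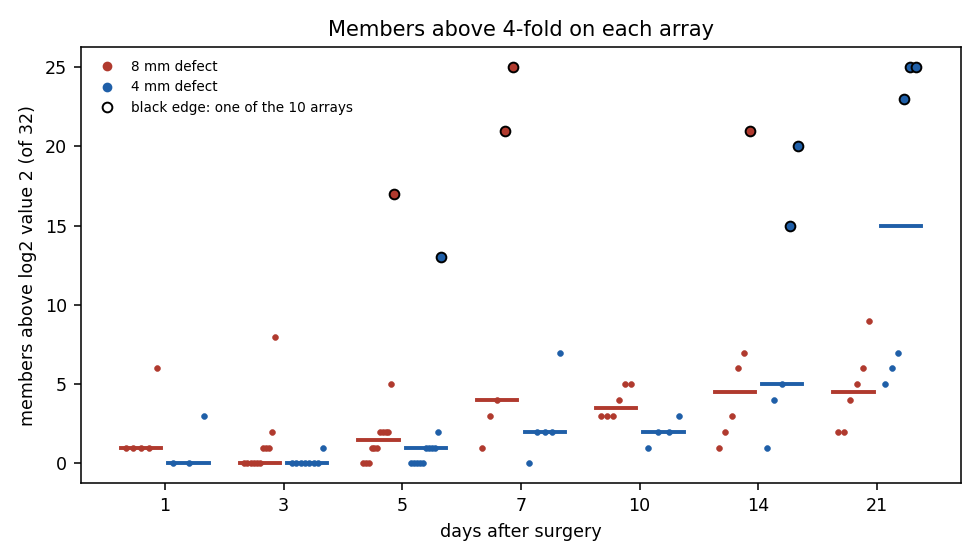
Number of the 32 members above a log2 value of 2 on each array (y axis) by days after surgery (x axis), 8 mm in red left of 4 mm in blue, with bars at group medians. The 10 black-edged arrays hold 13 to 25 such members and the others at most 9.

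The dense-core granule and vesicle genes differed in how far they followed these arrays. Chgb lay between 7.67 and 10.48 on the 10 arrays and at most at 7.42 on the other 83. Scg5, the secretory chaperone 7B2, lay between 5.71 and 8.33 on the 10 and at most at 3.99 elsewhere, and Syp, the vesicle membrane protein synaptophysin, between 3.99 and 6.64 against at most 2.31. For each of these 3 genes, the 10 arrays were its 10 highest. Snap25, a SNARE protein of vesicle fusion, had 8 of them among its 10 highest, at 2.36 to 6.53, against up to 3.40 elsewhere. Scg2 did not follow its fellow granin: it lay between -0.17 and 2.12 on the 10 arrays and reached 2.84 on the others, and 2 of the 10 were among its highest. Syn1 had 6, at -0.49 to 1.91. Syt1, the calcium sensor of vesicle release, had 5 and ran from the floor to 4.39 on the 10 arrays, against up to 3.33 elsewhere.

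The axonal skeleton genes showed the same split. Nefm, the medium neurofilament, lay between 4.23 and 8.21 on the 10 arrays against at most 4.56 elsewhere, and Nefl, the light one, between 2.86 and 5.75 against at most 2.95; each had 9 of its 10 highest values there. Nefh, the heavy neurofilament, was less separate at 0.41 to 2.93 against at most 2.56. Gap43 and Stmn2, which growing axons make, had 7 and 9 of the 10 among their highest arrays, with Gap43 at 1.05 to 2.80 and Stmn2 at 1.02 to 3.54. Thy1, a surface protein of neurons that fibroblasts and thymocytes also carry, lay between -2.71 and 1.18 on the 10 arrays and reached 1.87 elsewhere.

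Among glutamate receptor subunits, the AMPA subunit Gria2 lay between 2.33 and 6.91 on the 10 arrays with 9 among its highest, Gria3 between 1.56 and 4.63 with 9, and Gria1 between 0.00 and 3.05 with 7. The NMDA subunit Grin1 had 5, at 0.71 to 3.33. Of the GABA-synthesizing enzymes, Gad2 had 7 of the 10 among its highest and Gad1 had 2. Slc17a7, which loads glutamate into vesicles, had 5, at 1.90 to 3.98, and Nrgn, the postsynaptic calmodulin-binding protein neurogranin, had 1. Probes of 1 gene did not always go together here. Camk2b, a subunit of the calcium-dependent kinase of the postsynapse, had none of the 10 among its highest arrays with the probe used (at most 0.34), but all 10 with another of its probes (2.56 to 4.78, at most 1.46 elsewhere). Grin1 had 9 and Camk2a 9 with another probe, while Gad1 had 1. In all, 14 of the 32 members had another probe that was at the floor on fewer arrays than the one used.

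Most glial genes had their highest values on the same arrays. Slc1a2, the main astrocyte glutamate transporter GLT-1, lay between 3.28 and 5.81 on the 10 arrays and at most at 2.69 on the others. Slc1a3, the second transporter GLAST, lay between 0.95 and 2.84 against at most 1.83. Aqp4, the water channel of astrocyte end-feet, had 7 of the 10 among its highest, up to 5.69, but was at the floor on 1 of them. Gfap, the astrocyte intermediate filament, had 6, at 0.00 to 2.81, and reached 2.34 elsewhere. Mog, on the outer face of central myelin, lay between 2.30 and 6.05 against at most 1.66. Mobp and Mbp, proteins of compact myelin, and Mag, an adhesion molecule facing the axon, each had 8 of the 10 among their highest. Cnp, an enzyme of uncompacted myelin, had 6. The probe mattered here too: with the one at the floor on the fewest arrays Slc1a2 had 6 of the 10 among its highest, Mog 5 and Mobp 1, while Mbp had 8. Both probes of Slc1a3 were never at the floor, and its other probe had 9.

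**Figure D2:**
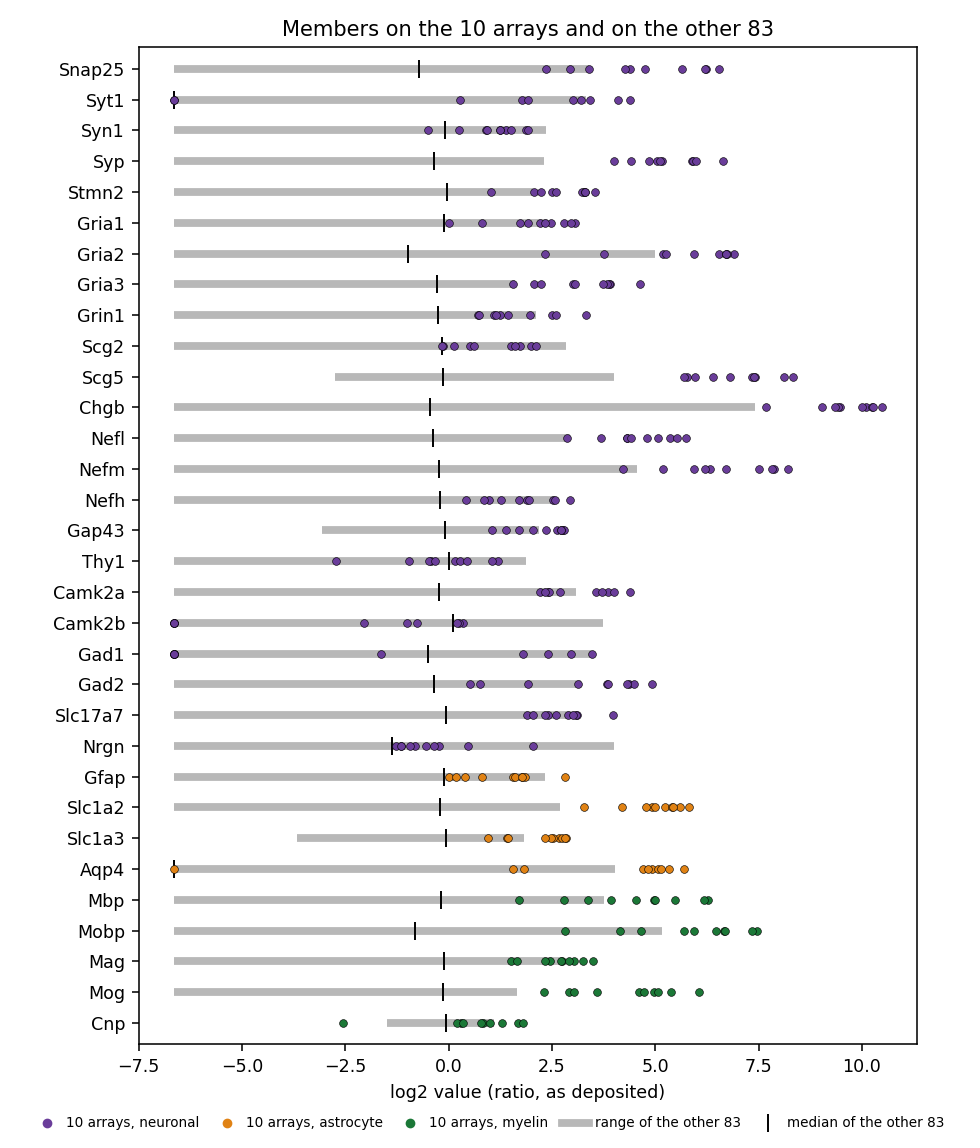
Log2 values (x axis) of each member (y axis) on the 10 arrays (points, coloured by class) with the range (grey bar) and median (black tick) of the other 83 arrays. Syp, Scg5, Chgb, Slc1a2 and Mog separate completely, while Scg2, Thy1, Camk2b and Nrgn lie within the range of the others.

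By this count, 15 of the 32 members had 8 or more of the 10 arrays among their 10 highest, against 2.55% of all genes, a share fixed in part by how the arrays were picked. Lists that played no part in the picking, though chosen with earlier results of these data known, gave a second view. Of other neuronal genes 14 of 25 had 8 or more, among them Gabbr2, a GABA-B receptor subunit, Nptx1, Rab3a and Celf4 with all 10. Of other astrocyte genes 5 of 12 did, with Aldoc, the brain aldolase, on all 10. Of other oligodendrocyte genes 2 of 11 did, the transcription factor Olig1 (10) and Opalin (9). These lists were not uniform. The neuronal genes Npy and Penk, the astrocyte gene Gja1 and the oligodendrocyte genes Olig2, Ermn and Fa2h had 0. In the peripheral lists 8 or more were reached by 0 of 9 Schwann cell genes, among which the myelin gene Prx had 0 and Sox10, a transcription factor that oligodendrocytes share, had 7 (1.11 to 2.81), and 1 of 11 sensory neuron genes, Tac1 (8). None was reached in choroid plexus (0 of 7), meninges (0 of 10), microglia (0 of 6), skeletal muscle (0 of 15) or bone formation genes (0 of 11). Summed as a mean log2 value, the skeletal muscle list ranged from -2.71 to 2.11 on the 10 arrays and from -3.77 to 6.83 on the others, and the median of all genes from -0.70 to 0.15 and from -1.17 to 0.56. Genes at the floor made up 8.03% to 21.9% of the 10 arrays and 7.91% to 21.4% of the others. In whole tissue, fewer cells of a type and less RNA per cell cannot be told apart.

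The 3 classes were high together. On the array of rat 12 at day 7 (8 mm) the mean log2 values were 3.91 for neuronal, 3.26 for astrocyte and 4.06 for myelin members, and on that of rat 11 at day 21 (4 mm) they were 3.85, 3.30 and 4.79. Their balance was not constant. Rat 10 at day 7 (8 mm) had 2.77, 4.10 and 4.78, with a difference of 2.01 between its myelin and neuronal means. Rat 10 at day 21 (4 mm) had 3.38, 3.56 and 3.34, with a difference of -0.04. As each value is relative to its own probe, these differences can be compared between arrays only. They do not show that 1 class was more abundant than another. Rat 17 at day 5 (4 mm) had the fewest members above 2 among the 10 arrays. Its means were 1.40 for neuronal, -0.10 for astrocyte and 1.73 for myelin members. The low astrocyte mean came with Aqp4 at the floor on this array. The medians of the same classes there were 1.72, 1.48 and 1.70. On the other 83 arrays the neuronal mean ran from -2.39 to 1.11, the astrocyte mean from -4.31 to 1.33 and the myelin mean from -3.36 to 1.51.

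**Figure D3:**
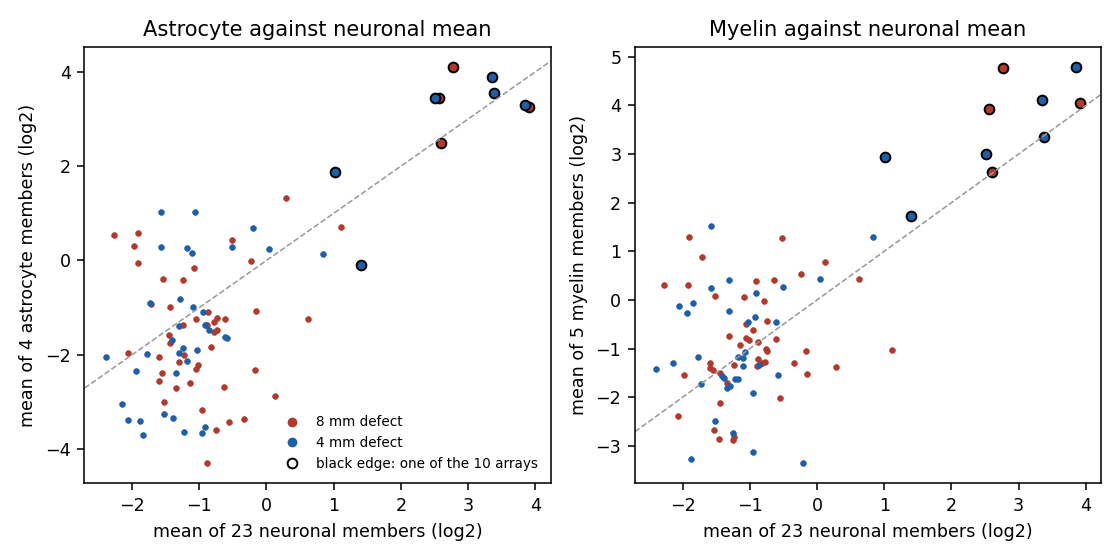
Mean log2 value of the astrocyte (left) and myelin members (right) against that of the neuronal members, 1 point per array, 8 mm red and 4 mm blue, with a dashed line of equality. The 10 black-edged arrays lie at the upper right and the other 83 form a cloud at the lower left.

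The correlation between members was lower without these arrays, a fall fixed in part by how they were picked. Over all 93 arrays the median Pearson r was 0.18 among neuronal members (253 pairs), 0.22 between neuronal and astrocyte members, 0.24 between neuronal and myelin members and 0.35 between astrocyte and myelin members. Without the 10 arrays the same medians were -0.003, 0.03, 0.03 and 0.06, beside 0.03 among all genes. Scg5 followed the mean of the other 31 members most closely (r = 0.90, and 0.60 without the 10 arrays) and Chgb next (0.71 and 0.41), while Thy1 did not (0.04 and -0.04). These are descriptions over arrays that share their scaling.

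Outside the list, the 10 genes most like the neuronal mean in their deviations from group means over 93 arrays were Cck, Nell2, Nptxr, Arc, Itih3, Grin2c, Rtn1, Snrpn, Spock2 and Lzts1. Their r ran from 0.85 for Cck, the neuropeptide cholecystokinin, to 0.76 for Lzts1, and each had all 10 arrays as its 10 highest. The genes were picked by this correlation with the members' own mean, the 10 arrays included. Both values are therefore fixed in part by the picking and are a description. Without these arrays r was 0.40 for Cck, 0.46 for Nell2 and 0.15 for Rtn1.

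Some members changed with time. Each later day was set against day 1 as the average of both sizes with limma, a linear model with moderated variances, and p-values were adjusted over all 15975 genes (Benjamini-Hochberg). All 6 comparisons share the same 8 day 1 arrays. At day 3, 4 of 32 members rose, against 5.97% of all genes that rose. At day 5, 5 rose (17.3% of all genes), at day 7, 8 rose (16.6%), and at day 10, 8 rose (10.4%), and no member fell at these days. At day 14, 10 rose (12.6%) and 1 fell (8.41%), and at day 21, 10 rose (13.4%) and 2 fell (12.8%). At day 5 the members' count was no larger a share than that of all genes. The axon growth genes Stmn2 and Gap43 were called at every day, as was Gria3, and Thy1 at every day but the last.

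Stmn2, the microtubule regulator stathmin-2, was low at day 1. Its values there were -6.55, -2.93, -2.04, -1.95 and -0.01 in 8 mm and -6.64, -6.64 and -1.71 in 4 mm defects. At day 3 they ran from -3.17 over a median of -0.58 to 0.34 in 8 mm and from -0.91 over -0.31 to -0.03 in 4 mm defects, and at day 21 from 0.01 over 0.87 to 2.04 in 8 mm and from -0.01 over 2.52 to 3.54 in 4 mm defects. In each size every day 21 array lay above every day 1 array, with 0.01 and -0.01 as the nearest at 8 mm. Stmn2 rose by 3.23 ± 0.57 (SE) at day 3 (adjusted p = 2.18e-05) and by 5.34 ± 0.62 at day 21 (adjusted p = 5.63e-11, limma), and by 4.69 at day 21 without the 10 arrays.

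Gap43, the growth-cone protein, ran at day 14 from -0.60 over a median of 1.64 to 2.80 in 8 mm defects and was 0.73, 1.08, 1.79, 2.05 and 2.77 in 4 mm defects. Its day 1 values were -1.98, -1.84, -1.02, -0.45 and -0.05 in 8 mm and -2.69, -2.03 and -1.83 in 4 mm defects. All 5 day 14 arrays at 4 mm and all but the lowest at 8 mm lay above every day 1 array. The rise was 1.19 ± 0.39 at day 3 (adjusted p = 0.0462) and 3.19 ± 0.42 at day 14 (adjusted p = 5.25e-09, limma). Scg2 rose later, by 1.44 ± 0.50 at day 5 (adjusted p = 0.0296), near the threshold (1.40 with adjusted p = 0.0526 without the 10 arrays), and by 3.36 ± 0.55 at day 21 (adjusted p = 1.30e-06), with the same 3.36 without them. Its day 21 values ran from -0.51 over 1.27 to 1.97 in 8 mm and from 1.43 over 1.73 to 2.33 in 4 mm defects.

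Slc17a7, the vesicular glutamate transporter VGLUT1, rose at the last days with the probe used. Its day 21 values ran from 0.65 over 2.76 to 3.10 in 8 mm and from 2.11 over 3.05 to 3.98 in 4 mm defects. Its day 1 values were -2.51, -2.49, -0.31, 0.13 and 0.62 in 8 mm and -1.31, -0.77 and -0.41 in 4 mm defects. Every day 21 array lay above every day 1 array. The rise was 3.46 ± 0.68 at day 21 (adjusted p = 5.29e-05, limma) and 3.26 without the 10 arrays. It fell short of the threshold with the mean of its 2 probes (1.47, adjusted p = 0.118, limma). The probes have r = -0.01 with each other, and a mean of 1.47 leaves no rise for the other probe.

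Aqp4 rose by 7.55 ± 1.50 at day 7 (adjusted p = 6.40e-05) with the probe used. At day 7 that probe read 0.70, 2.62, 2.73, 4.71 and 5.69 in 8 mm and -6.64, -0.87, 1.43, 1.50 and 3.36 in 4 mm defects, so it was high on arrays outside the 10 too. At day 1 it was at the floor on 4 of 5 arrays in 8 mm and on all 3 in 4 mm defects, so the size of the change is not fixed. Aqp4 has 3 other probes, with r of 0.35, 0.37 and 0.05 to the one used. In the same order they gave 2.98, 1.10 and -0.75 at day 7 (adjusted p = 0.242, 0.628 and 0.639). At day 10, where the probe used rose by 4.52 ± 1.51 (adjusted p = 0.0282), they gave -2.10, -1.94 and -3.16 (adjusted p = 0.459, 0.373 and 0.0168). The direction for Aqp4 at day 10 thus depended on the probe, and none of the other 3 probes was called as a rise at days 7, 10, 14 or 21.

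The other glial and myelin calls were fewer and less firm. Slc1a3 rose by 2.40 ± 0.49 at day 7 (adjusted p = 0.000115) and by 2.06 without the 10 arrays, and by 1.53 ± 0.50 at day 10 (adjusted p = 0.0234); its rises at days 14 and 21 were called only with them. Mobp rose at days 10, 14 and 21, by 8.43 ± 1.77 at day 21 (adjusted p = 0.000144), with 4 of 5 day 1 arrays of 8 mm and 1 of 3 of 4 mm defects at the floor, so that this size is not fixed. Its probe that was never at the floor gave 2.17 ± 0.45 (adjusted p = 9.84e-05) and the third probe 2.42 (adjusted p = 0.247). Slc1a2 at day 14 (4.59 ± 1.57, adjusted p = 0.0269), Mbp at day 21 (2.77 ± 0.94, adjusted p = 0.0215), Cnp at day 7 (0.93 ± 0.32, adjusted p = 0.0267) and the neuronal Scg5 at day 21 (2.90 ± 0.96, adjusted p = 0.0183) rose with all arrays, and none of these 4 calls remained without the 10 arrays. Gad1 was the member that fell at day 14, by 5.58 ± 1.77 (adjusted p = 0.0160). At day 21 Gad1 fell by 5.32 ± 1.73 (adjusted p = 0.0159) and Camk2b by 3.80 ± 1.34 (adjusted p = 0.0269) with the probes used. The other Gad1 probes gave 4.61 (adjusted p = 0.0466) and -2.09 (adjusted p = 0.398) at day 21, so its direction depended on the probe, and those of Camk2b gave -1.74 (adjusted p = 0.277) and -1.95 (adjusted p = 0.180). Gria3, called at all 6 days, rose by 3.87 ± 0.61 at day 21 (adjusted p = 5.81e-07) with the probe used and gave -0.12 with the other (adjusted p = 0.913).

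**Figure D4:**
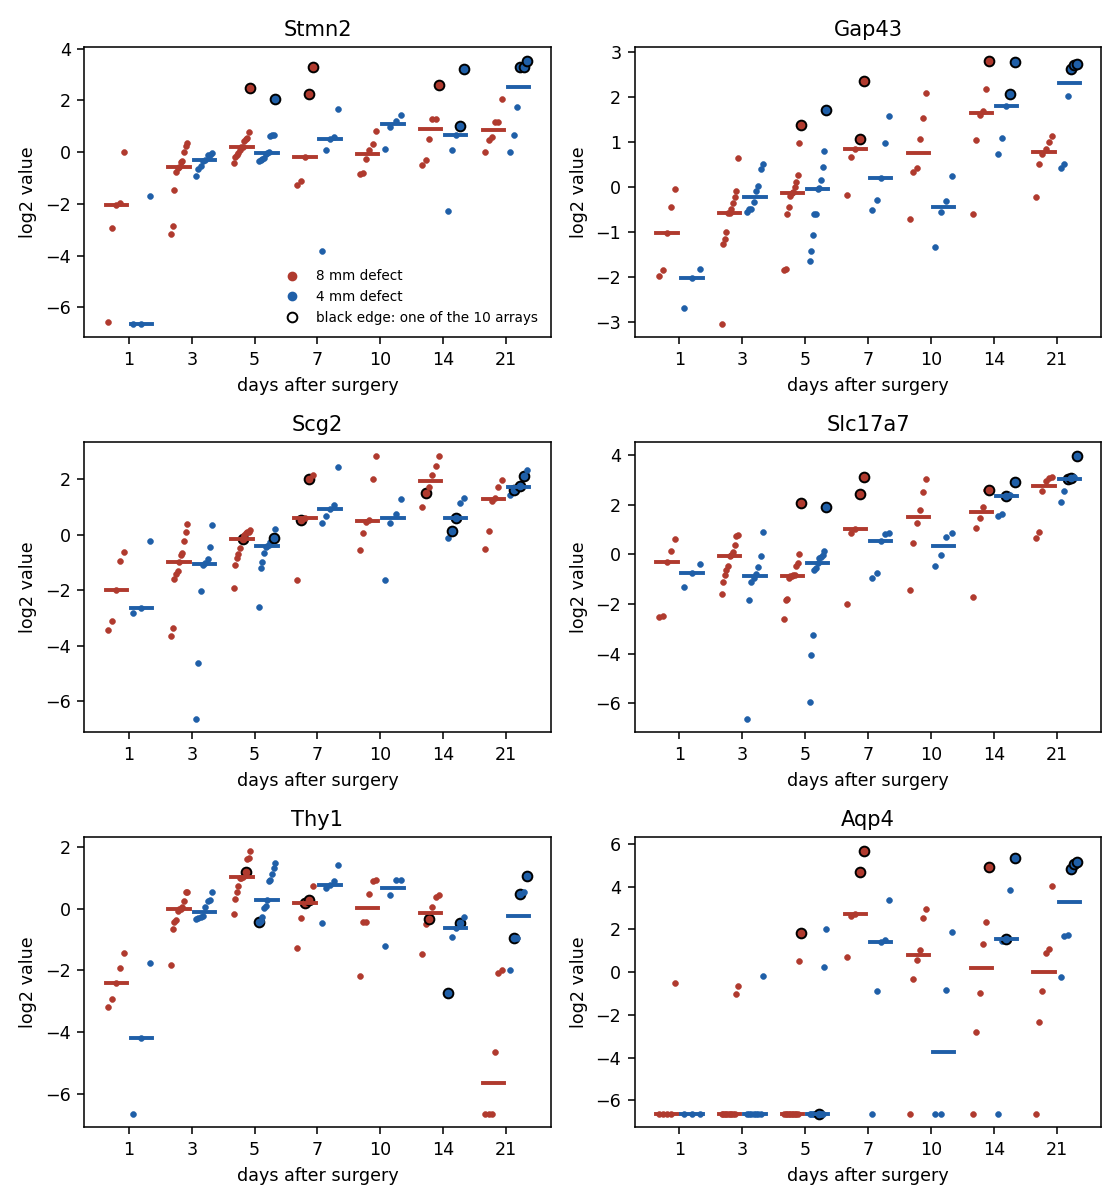
Log2 values (y axis) of 6 members on each array by days after surgery (x axis), 8 mm in red left of 4 mm in blue, bars at group medians and black edges for the 10 arrays. With the probes used, Stmn2, Gap43, Scg2 and Slc17a7 stand higher at later days on arrays outside the 10 too. The Aqp4 probe used leaves the floor from day 7, though not on every array, and Thy1 drops in 8 mm defects at day 21.

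Without the 10 arrays, 4 of 4, 4 of 5, 7 of 8, 8 of 8, 8 of 11 and 9 of 12 calls remained at days 3, 5, 7, 10, 14 and 21. In that fit 4, 5, 8, 9, 10 and 9 of 32 members were called at these days. The shares of all genes called there were 6.72%, 18.6%, 19.5%, 17.6%, 20.6% and 25.2%. As the arrays were picked by high member values, a call lost without them is a description too. Of the other lists at day 21, beside 13.4% of all genes that rose and 12.8% that fell, 5 of 25 other neuronal genes rose and 1 fell, 7 of 12 other astrocyte genes rose, 3 of 11 other oligodendrocyte genes rose, and of 9 Schwann cell genes 1 rose. The median change at day 21 was 0.75 for the neuronal, 2.34 for the astrocyte and 0.62 for the myelin members, beside -0.18 for all genes, 3.02 for meningeal and -5.91 for skeletal muscle genes. The part of these lists in the members' changes was not tested. Tested over all 7 days at once with limma's moderated F statistic, 13 of 32 members changed in 8 mm defects (40.2% of all genes) and 14 of 32 in 4 mm defects (33.5%), so the count at 8 mm was at the share of all genes. In both sizes these were Stmn2, Gria3, Scg2, Gap43, Thy1, Camk2b, Slc17a7, Slc1a3, Aqp4 and Mobp; Gria1, Nrgn and Mbp joined in 8 mm defects, and Snap25, Scg5, Chgb and Cnp in 4 mm defects.

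No member passed the threshold between the 2 defect sizes before day 21. At days 1, 3 and 5, 0 of 32 members and 0% of all genes passed the threshold. At an unadjusted p under 0.05 (limma) there were 3, 0 and 1 members at these days. The smallest p-values were for Thy1 (p = 0.0162), Stmn2 (p = 0.0195) and Snap25 (p = 0.0464) at day 1, for Cnp, Slc17a7 and Scg2 at day 3 (p = 0.0831 to 0.137) and for Gria2, Camk2b and Cnp at day 5 (p = 0.0472 to 0.192). At day 7, with 0.369% of all genes called, 28 of 32 members had a positive difference, with a median of 1.92 beside -0.40 over all genes, and none was called. Mbp had the smallest p there (3.11 ± 1.28, adjusted p = 0.249), then Nefl (3.91 ± 1.90, adjusted p = 0.315) and Nefm (3.84 ± 2.08, adjusted p = 0.365). Mbp read 0.48, 0.65, 1.47, 4.96 and 6.28 in 8 mm defects at day 7, and the 2 highest were rats 12 and 10 of the 10 arrays. Without the 10 arrays Gria3 was called at day 7 (-2.63), where 2.35% of all genes were called. With the probe at the floor on the fewest arrays Camk2a (7.34) and Mobp (2.66) were called, beside 0.495% of all genes. At days 7, 10 and 14 an unadjusted p under 0.05 was reached by 2, 4 and 1 members. At day 10 (0.263% called) Gad1, Gad2 and Gap43 and at day 14 (1.63% called) Cnp, Scg2 and Mog had the smallest p-values, with adjusted p from 0.371 to 0.501. Averaged over the 7 days, 0 of 32 members (2 at an unadjusted p under 0.05) and 0.413% of genes passed, with Camk2b (1.68 ± 0.64), Gria3 (-0.62 ± 0.29) and Thy1 (-0.38 ± 0.23) nearest.

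At day 21, 5 members were lower in 8 mm than in 4 mm defects and 0 higher, against 1.86% of all genes lower: Snap25, Gria1, Gria3, Scg5 and Thy1. Of the 32 differences 30 were negative, with a median of -2.97 beside -0.20 over all genes. The 6 arrays of 4 mm defects at this day include 3 of the 10 arrays and those of 8 mm defects none. Without the 10 arrays Thy1 was the only member called (1.26% of all genes called), and after quantile normalization too. The 10 arrays were picked by the members' high values, so leaving them out lowers the 4 mm values and the number of arrays in advance. The calls lost without them are therefore a description. Leaving out each of the 12 arrays of day 21 in turn gave 2 to 7 calls. Thy1 and Gria1 were called in all 12 of these fits, Gria3 in 9, Snap25 in 6 and Scg5 in 3. Without rat 10, 11 or 15 of 4 mm defects, the 3 high arrays, Gria1 and Thy1 alone were called, and without rat 11 of 8 mm defects Gria1, Gria3 and Thy1.

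Snap25 ran from -6.64 over a median of -4.70 to 1.94 in 8 mm defects at day 21, with 3 arrays at the floor, and from 2.40 over 4.52 to 6.23 in 4 mm defects. The groups did not overlap. The difference was -7.72 ± 2.12 (adjusted p = 0.0307, limma), and it was -6.17 (adjusted p = 0.264) without the 10 arrays and -4.39 (adjusted p = 0.187) with its other probe. Gria1 ran from -6.64 over -3.83 to 0.59 in 8 mm and from -1.02 over 1.51 to 2.96 in 4 mm defects, with overlap, a difference of -4.66 ± 1.04 (adjusted p = 0.00765) and -3.27 (adjusted p = 0.199) without the 10 arrays.

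Gria3 separated the sizes at day 21 without overlap: it ran from -1.57 over -1.32 to -0.29 in 8 mm and from 0.06 over 1.97 to 3.87 in 4 mm defects. The difference was -3.07 ± 0.76 (adjusted p = 0.0148, limma), -1.23 without the 10 arrays (adjusted p = 0.431) and -1.88 with the other probe (adjusted p = 0.227). Scg5 ran from 0.01 over 0.73 to 1.10 in 8 mm and from 1.52 over 4.74 to 8.11 in 4 mm defects, again without overlap. Its difference was -4.04 ± 1.19 (adjusted p = 0.0483), and -1.11 (adjusted p = 0.636) without the 10 arrays. Of the glial members none was called: Slc1a3 differed by -1.77 ± 0.59 (adjusted p = 0.0893), Gfap by -3.71 ± 1.48 and Cnp by -0.88 ± 0.38.

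Thy1 was still called without the 10 arrays. At day 21 it ran from -6.64 over -5.63 to -1.97 in 8 mm defects, with 3 of 6 arrays at the floor, and from -1.99 over -0.25 to 1.06 in 4 mm defects, so that 1 array of each size overlapped. The difference was -4.46 ± 0.59 (adjusted p = 6.99e-07, limma) and -3.96 without the 10 arrays. Thy1 was also the only member whose size difference varied over the days (interaction adjusted p = 2.01e-05, with 0.538% of all genes called). At day 14 it had run from -1.47 over -0.15 to 0.43 in 8 mm defects and had been -2.71, -0.92, -0.63, -0.47 and -0.29 in 4 mm defects. Of the other lists at day 21, Cplx2 of the other neuronal genes (-4.48 ± 1.03), Prph of the sensory neuron genes (-1.91 ± 0.48) and Sall1 of the microglial genes (-4.88 ± 1.44) were lower in 8 mm defects, and Bsn (1.54 ± 0.46) and Siglech (3.07 ± 0.56) were higher.

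**Figure D5:**
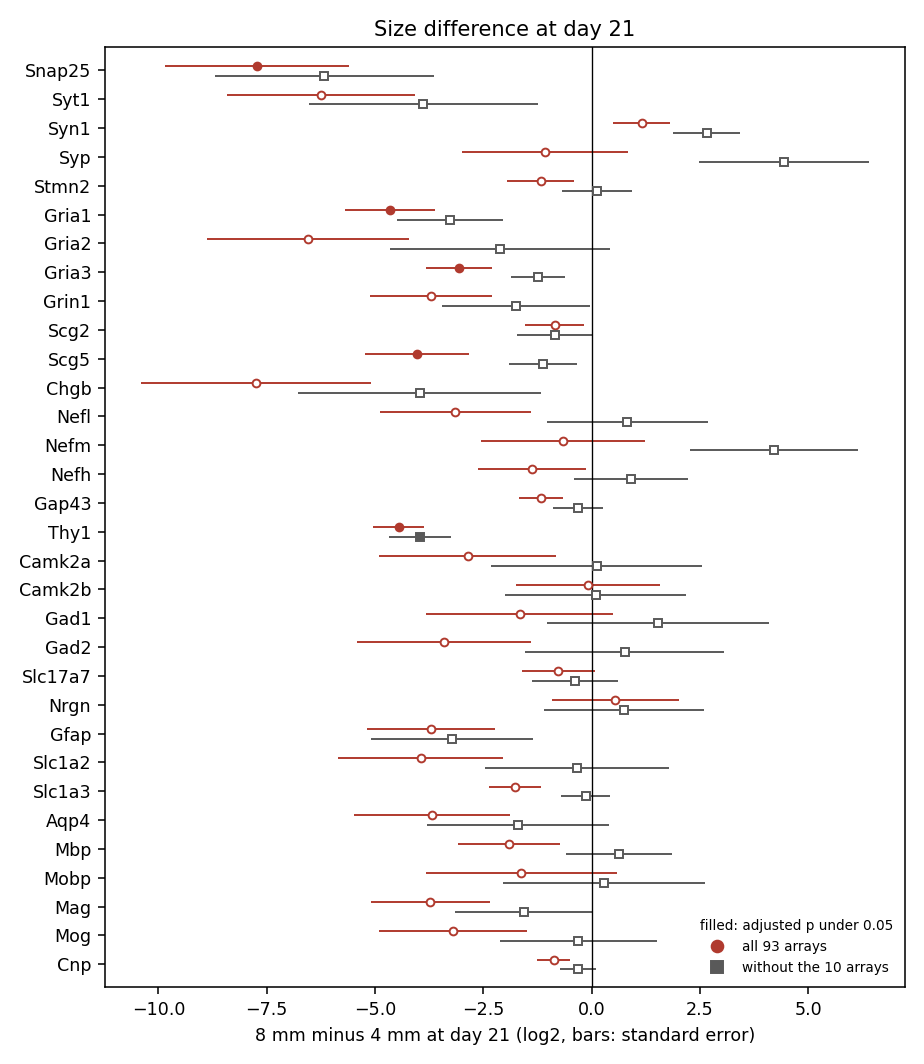
Difference between 8 mm and 4 mm defects at day 21 (log2, x axis, bars are standard errors) for each member (y axis), with all arrays (red circles) and without the 10 arrays (grey squares), filled where the adjusted p is under 0.05. With all arrays 5 members are called and 30 differences are negative; without the 10 arrays Thy1 alone is called.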

How the data were processed

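The deposited values are linear ratios per probe; this is read from the values themselves. The labels' protocols give the array and the dye; scanner, background correction and scaling are not stated there. For 87.8% of 41090 probes the median ratio over the 93 arrays was 1, and 13.4% of values sat at 0.01. They were used as log2 with no pseudocount. Symbols came from the platform annotation, with 2316 updated by accession; 20158 probes are unnamed here. The probe with the largest interquartile range stood for a gene. Groups, 2 sizes by 7 days, came from the labels. All 93 arrays entered 1 limma fit (version 3.58.1, R 4.3.3) with 14 group means, adjusted over 15975 genes, threshold 0.05; tested on simulated data before use. Lists and members were chosen with earlier results of these data known. All members are described; each comparison names those past the threshold, otherwise the 3 smallest p-values, with 10 alike genes and called genes of other lists. Alternatives were scaling, filters, probes, floors, array weights, a block and left-out arrays; the 2 array sets, left-out day 21 arrays, the fewest-floor probe and other single probes were added after seeing the data. The number of arrays limits the precision.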

Additional observations from a re-analysis of the deposited data

Results flagged for a closer look

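Among 140 sets of 4 to 10 arrays of 1 group, 30 of class means and 110 of 11 named members, 13 held an array far from its neighbours by Dixon's test, which flags about 1 set in 20 by chance. The neuronal mean was lowest, at -2.27, on rat 15 of 8 mm defects at day 10, next to -1.44. In single members the high arrays were Gria3 (3.05) and Scg5 (6.80) on rat 11 of 8 mm defects at day 14, 1 of the 10 arrays with many members above 2. Gria1 (1.88) stood out on rat 11 of 8 mm defects at day 10, and Slc1a3 (1.83) on rat 14 of 4 mm defects at day 7. The low ones were Thy1 (-2.71) on rat 17 of 4 mm defects at day 14, and Slc1a3 (-3.61) on rat 10 of 8 mm defects at day 21. Several involved the floor of -6.64, where tied arrays make any value above it stand out. There the rate of 1 set in 20 does not hold. Snap25 was above it on 1 of 4 arrays of 4 mm defects at day 10 (2.10). Aqp4 was above it on 1 array of 8 mm defects at day 1 (-0.51) and of 4 mm defects at day 3 (-0.18), and Mobp on 1 of 8 mm defects at day 1 (-2.04). Aqp4 in 8 mm defects at day 10 and Gria1 in 4 mm defects at day 14 were at the floor (-6.64) on 1 array.

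The size difference of Thy1 varied over the days (interaction adjusted p = 2.01e-05, limma): 8 mm defects were lower at day 21 by a log2 difference of -4.46, while at day 1 the difference was 1.82.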

How the results depend on the processing

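Of 246 values for main results outside the settings that leave out 1 array, 215 kept their direction and side of the threshold, or stayed within 1.5 times for a count, and 31 moved. Members called for size at day 21 numbered 5, but 1 after quantile normalization, 3 without the less variable genes, 3 with values raised to a ratio of 0.25, 1 when genes ever at the floor were left out, 3 with the probe at the floor on the fewest arrays, with either choice where probes tied, and 1 without the 10 arrays with many members above 2. For size at day 7 they numbered 0, but 1 with array weights, 2 with the fewest-floor probe, with either choice, and 1 without the 10 arrays. Against day 1, centring each array gave 3 at day 5. Leaving out the less variable genes gave 2, 3 and 5 at days 3, 5 and 7 and 8 over days at 8 mm. The mean of all probes gave 7 at day 14, and raised values 2 at day 3. Leaving out genes ever at the floor kept 5413 genes and only 4 members. It gave 1, 2, 4, 2, 3 and 3 at days 3 to 21, 3 over days at 8 mm and 4 at 4 mm. The interaction then called 0, as Thy1 was among the members left out. Of the 5 members called for size at day 21, Scg5 alone was kept. The interaction called 2 members with array weights and 3 without the 7 arrays of low level, against 1. The neuronal mean of 8 mm defects at day 21 was -1.55, but -0.15 with raised values and -0.80 with the fewest-floor probe.

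Among these settings directions reversed only with other probes. Of 2 Aqp4 probes tied for the fewest floor values, 1 gave -0.75, -3.16, -2.30 and -0.60 at days 7, 10, 14 and 21, and the other -1.94 at day 10 and positive values at days 7, 14 and 21; the mean of all probes gave -0.67 at day 10. With the fewest-floor probe Slc1a2 gave -0.42 at day 14 and Gria3 -0.12 at day 21. Apart from the number of genes or arrays tested, the cause was not tested. Single arrays were left out in turn, 27 of groups of 3 to 5 as planned and the 12 of day 21 added after seeing the data. Size at day 21 had 2 to 7 calls, both extremes from the 12, with 2 without rat 10, 11 or 15 of 4 mm and 3 without rat 11 of 8 mm defects. Size at other days and the mean of days had 0. Against day 1 there were 3 to 4, 4 to 6, 7 to 10, 5 to 9, 8 to 13 and 9 to 14 calls at days 3, 5, 7, 10, 14 and 21. There were 11 to 18 over days at 8 mm, 11 to 17 at 4 mm, and 1 to 2 for the interaction. The 5 at day 10 came without rat 13 of 4 mm defects at day 1. The 2 for the interaction came without rat 10 at day 10 or rat 16 at day 14 of 4 mm, or rat 11 or 12 at day 21 of 8 mm defects. Same-numbered arrays of a day were little alike: 3 of 34 pairs had a correlation of deviations above 0.1, the highest 0.33. In 9 of the 34 pairs the best match was the array of the same number. These values do not settle whether such arrays share an animal. With the number as a replicate block 5 members were called for size at day 21. Of the member values, 15.6% lay at the floor, where they cannot be ranked.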
